A study of Rattus norvegicus with 18 samples.

Results

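Chemokines are small secreted proteins that direct the movement of leukocytes, and their receptors are the G protein-coupled receptors that read them. The genes described here are the 52 rat genes of the RefSeq table whose symbols begin with Ccl, Cxcl, Cx3cl, Xcl, Cx3cr or Cxcr, or with Ccr and a digit. They were measured in the livers of male F344 rats on Agilent one-colour arrays with 1 rat on each of 18 arrays. A matched probe was found for 50 of the 52 genes, 33 ligands and 17 receptors, among 15642 genes with a matched probe in all. Of these, 34 (26 ligands and 8 receptors) passed the filter on dim probes, among 10914 genes that passed it. The filter kept a gene if its probe was well above background, by the scanner software's own flag, in all 3 arrays of at least 1 group.

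The 6 groups held 3 rats each. CCl4 rats received carbon tetrachloride, a liver toxicant, at 100 mg/kg in corn oil, and DEN rats received diethylnitrosamine, a DNA-damaging liver carcinogen, at 4 mg/kg in saline. Gavage was daily, with a volume of 5 mL/kg, over 28 or 84 days, and controls were killed on the same 2 days. The CCl4 and DEN groups of a day share their controls. All rats were bought at 5 weeks of age. The sample titles call the controls vehicle rats, whereas the protocol describes untreated rats on basal diet, so whether controls were gavaged is unclear. The vehicles of the 2 compounds also differ, so compound and vehicle cannot be told apart in any comparison. No allele or transgene is named in the labels, and the tissue is whole liver. In whole liver, more cells of a type and more RNA per cell cannot be told apart.

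In the liver, chemokines come from hepatocytes, resident macrophages called Kupffer cells, endothelium, stellate cells and bile duct cells. The CC ligands Ccl2, Ccl7 and Ccl12 recruit monocytes through Ccr2. The CXC ligands that carry a Glu-Leu-Arg motif, such as Cxcl1 and Cxcl2, recruit neutrophils through Cxcr1 and Cxcr2. Cxcl9, Cxcl10 and Cxcl11 are induced by interferon and attract T cells and NK cells through Cxcr3, and Ccl19 and Ccl21 guide cells bearing Ccr7 to lymphoid tissue. Cx3cl1 and Cxcl16 are unusual in being membrane-anchored, and Cxcl12 with its receptor Cxcr4 holds leukocytes and progenitors in place.

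Many inflammatory chemokine genes are known targets of NF-kB, AP-1 and interferon-responsive factors, which bind short motifs near the start of the gene. RefSeq promoter windows of assembly GRCr8, 250 bases before to 50 bases after the start, were given for 39 of the 52 genes and for 28 of the 34 tested. The kappaB motif was present on either strand in 8 of the 39 windows (20.5%), against 4.18% of all 33469 windows. TGANTCA, the AP-1 motif, was in 6 of the 39 windows (15.4%), against 7.33% of all. The core motif of the interferon-stimulated response element (ISRE) was in 2 of the 39 (5.13%), against 3.92% of all. No promoter window was given for Ccl2, Ccl3, Ccl4 or Ccl5. The 250 bases before the start are printed for the 6 tested genes whose window held a kappaB match, all of which are described in the results below. Capitals mark kappaB, TGANTCA and ISRE matches, and overlapping matches of one motif form a single run.
Cxcl1: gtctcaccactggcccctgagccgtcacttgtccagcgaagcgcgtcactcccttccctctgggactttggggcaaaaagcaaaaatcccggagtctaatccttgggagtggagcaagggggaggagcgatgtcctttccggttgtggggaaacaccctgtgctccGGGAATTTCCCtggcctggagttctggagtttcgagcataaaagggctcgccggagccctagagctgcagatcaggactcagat
Cxcl2: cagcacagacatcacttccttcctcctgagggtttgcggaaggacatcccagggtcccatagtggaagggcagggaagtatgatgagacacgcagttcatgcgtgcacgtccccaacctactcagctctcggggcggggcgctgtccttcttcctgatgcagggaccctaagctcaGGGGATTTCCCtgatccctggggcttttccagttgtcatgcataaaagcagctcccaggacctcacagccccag
Cxcl10: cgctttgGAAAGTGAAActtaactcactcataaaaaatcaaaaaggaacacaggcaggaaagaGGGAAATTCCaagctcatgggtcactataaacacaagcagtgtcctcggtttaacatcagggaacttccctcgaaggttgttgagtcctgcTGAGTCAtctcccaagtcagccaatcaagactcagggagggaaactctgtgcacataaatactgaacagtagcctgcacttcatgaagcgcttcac
Cxcl11: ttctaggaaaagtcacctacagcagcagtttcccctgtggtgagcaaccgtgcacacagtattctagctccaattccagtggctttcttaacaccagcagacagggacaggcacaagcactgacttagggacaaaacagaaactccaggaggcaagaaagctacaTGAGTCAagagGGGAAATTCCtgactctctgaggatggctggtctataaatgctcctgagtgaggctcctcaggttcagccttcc
Ccl20: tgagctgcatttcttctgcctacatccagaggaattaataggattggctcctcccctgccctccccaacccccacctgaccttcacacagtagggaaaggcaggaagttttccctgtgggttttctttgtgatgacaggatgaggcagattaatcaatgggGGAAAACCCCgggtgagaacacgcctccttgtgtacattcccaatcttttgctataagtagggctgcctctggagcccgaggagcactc
Ccl9: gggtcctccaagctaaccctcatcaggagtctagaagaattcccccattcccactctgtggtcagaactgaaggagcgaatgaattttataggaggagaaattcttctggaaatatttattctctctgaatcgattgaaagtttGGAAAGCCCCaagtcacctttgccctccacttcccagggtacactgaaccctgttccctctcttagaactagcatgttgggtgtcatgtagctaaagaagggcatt

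These windows lie at chr14:17479322-17479571 on the minus strand for Cxcl1, chr14:17467256-17467505 on the minus strand for Cxcl2, chr14:15988816-15989065 on the plus strand for Cxcl10 and chr14:15973478-15973727 on the plus strand for Cxcl11. The other 2 lie at chr9:91836909-91837158 on the plus strand for Ccl20 and chr10:68868878-68869127 on the minus strand for Ccl9. In Cxcl1 and Cxcl2, which are neighbours in the genome, overlapping kappaB matches began 84 and 83 bases before the start in Cxcl1 and 74 and 73 bases before it in Cxcl2. Cxcl11 also held a kappaB match that began 74 bases before the start, with a TGANTCA match 85 bases before it. Cxcl10 held all 3 motifs, at 187 bases (kappaB), 96 bases (TGANTCA) and 243 bases (ISRE) before the start. Ccl20 and Ccl9 held 1 kappaB match each, 89 and 106 bases before the start. A match is a description of letters and does not show that a factor was bound in these livers.

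The arrays were alike in quality. Between 47.2% and 57% of 61537 probes were well above background on each array and 0 were saturated, and arrays of 1 group correlated at 0.976 to 0.996. CCl4 replicate 2 of day 28 stood apart from the other CCl4 rats of that day on the first principal component. Chemokine calls of day 28 that were lost without it, and list counts below that changed, are therefore also given without it. The arrays lay on 3 slides. The first held all controls and DEN rats of day 28 with CCl4 replicates 1 and 2 of that day. The second held CCl4 replicate 3 of day 28, all controls and DEN rats of day 84 and CCl4 replicate 1 of day 84. CCl4 replicates 2 and 3 of day 84 were alone on the third slide, which was scanned on another day. Hepatocyte markers summed to 283878 to 372998 in CCl4 rats, 269641 to 325287 in DEN rats and 466293 to 475221 in controls at day 84, so the tissue carried the transcripts of its label in all groups.

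Levels below are normalised signals, in which the 75th percentile of the probes on each array is 100. They compare rats for 1 gene only, since probes of different genes differ in brightness. Fold changes are on the log2 scale with their standard errors. Adjusted p-values come from limma fitted to all 18 arrays with Benjamini-Hochberg adjustment over the 10914 genes, and a gene is said to have risen or fallen where its adjusted p was below 0.05. The labels name each rat as a separate sample, with 3 per group. Groups of this size often do not overlap. CCl4 rats and controls did not overlap for 71.8% of the 10914 genes at day 84 and 60.7% at day 28. For DEN rats and controls the shares were 64.9% and 42.8%, and for CCl4 and DEN rats 49% and 54.8%. Where a gene's groups are said below not to overlap, that alone is no result of its own.

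Chemokine genes changed in both treatments, and most in CCl4 rats at day 84. There 18 of the 34 tested genes rose and 7 fell, 73.5% of them, against 64.3% of all genes (28% higher and 36.3% lower). In CCl4 rats at day 28, 12 rose and 6 fell (52.9%), against 59.7% of all genes (26.1% higher and 33.6% lower). In DEN rats at day 84, 8 rose and 5 fell (38.2%), against 52.7% of all genes (21.6% higher and 31.1% lower). In DEN rats at day 28, 7 rose and 0 fell (20.6%), against 15% of all genes (7.82% higher and 7.19% lower). Read against these backgrounds, the number of chemokine genes that changed is no result of its own, and the results lie in which genes changed and by how much. These counts include genes that the filter admitted through a treated group alone, so the genes that were bright everywhere are also given by themselves.

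The filter bears on these counts, because 4 of the 34 genes (Ccl17, Ccl20, Ccr2 and Cxcr6) passed it only through CCl4 rats of day 84 and 7 others (Ccl2, Ccl7, Ccl12, Ccl22, Ccr6, Cxcl2 and Cxcl13) passed it through some groups only. For Ccl2, Ccl7, Ccl12, Ccl20, Ccr2, Ccr6, Cxcl2 and Cxcr6 the adjusted p against controls with no filter on dim probes is given too. The other 23 genes were well above background on all 18 arrays, as were 9230 genes in all. Of the 23, 10 rose and 7 fell in CCl4 rats at day 84 (73.9%, against 64.8% of those 9230 genes), and 8 rose and 5 fell at day 28 (56.5%, against 61.5%). In DEN rats 7 rose and 4 fell at day 84 (47.8%, against 54.4%), and 6 rose and 0 fell at day 28 (26.1%, against 15.6%). The median log2 fold change of the 23 was 0.33 and -0.094 in CCl4 rats at days 84 and 28 and 0.038 and 0.47 in DEN rats, against -0.15, -0.11, -0.11 and -0.056 over the 9230 genes.

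Scaling and slides moved the counts for all genes as well as for chemokine genes. With the arrays scaled to their spike-in probes, the median of all genes was 0.45 in CCl4 rats and 0.63 in DEN rats at day 84 and 0.74 and 0.36 at day 28. Of the 34 genes, 20 were then higher and 1 lower in CCl4 rats at day 84, against 53.8% and 6.63% of all genes, and 21 and 1 at day 28, against 74.3% and 4.6%. In DEN rats 17 were higher and 1 lower at day 84, against 68.7% and 2.68%, and 16 and 0 at day 28, against 32.6% and 0.641%. With arrays centred on the median of tested probes, 6 rose and 1 fell in DEN rats at day 28, against 16.9% of all genes called. The slide as a block gave 22 calls in CCl4 rats at day 84 and 20 at day 28, against 54% and 61.1% of all genes, and 14 and 9 in DEN rats, against 54.7% and 17.4%. Arrays of 1 slide alone gave 20 and 17 calls in CCl4 rats, against 50.3% and 54.2%, and 18 and 6 in DEN rats, against 52.3% and 7.23%. In CCl4 rats at day 84 the calls of Ccl5, Ccl9, Ccl20, Ccl24, Ccr2, Ccr6, Cx3cr1 and Cxcl11 were lost within 1 slide, on which that group is 1 rat. Spike-in scaling adds 0.55 in CCl4 and 0.70 in DEN rats at day 84, and 0.80 and 0.41 at day 28, to every log2 fold change below, those of marker genes included, so that smaller falls turn into rises on that scale.

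**Figure D1:**
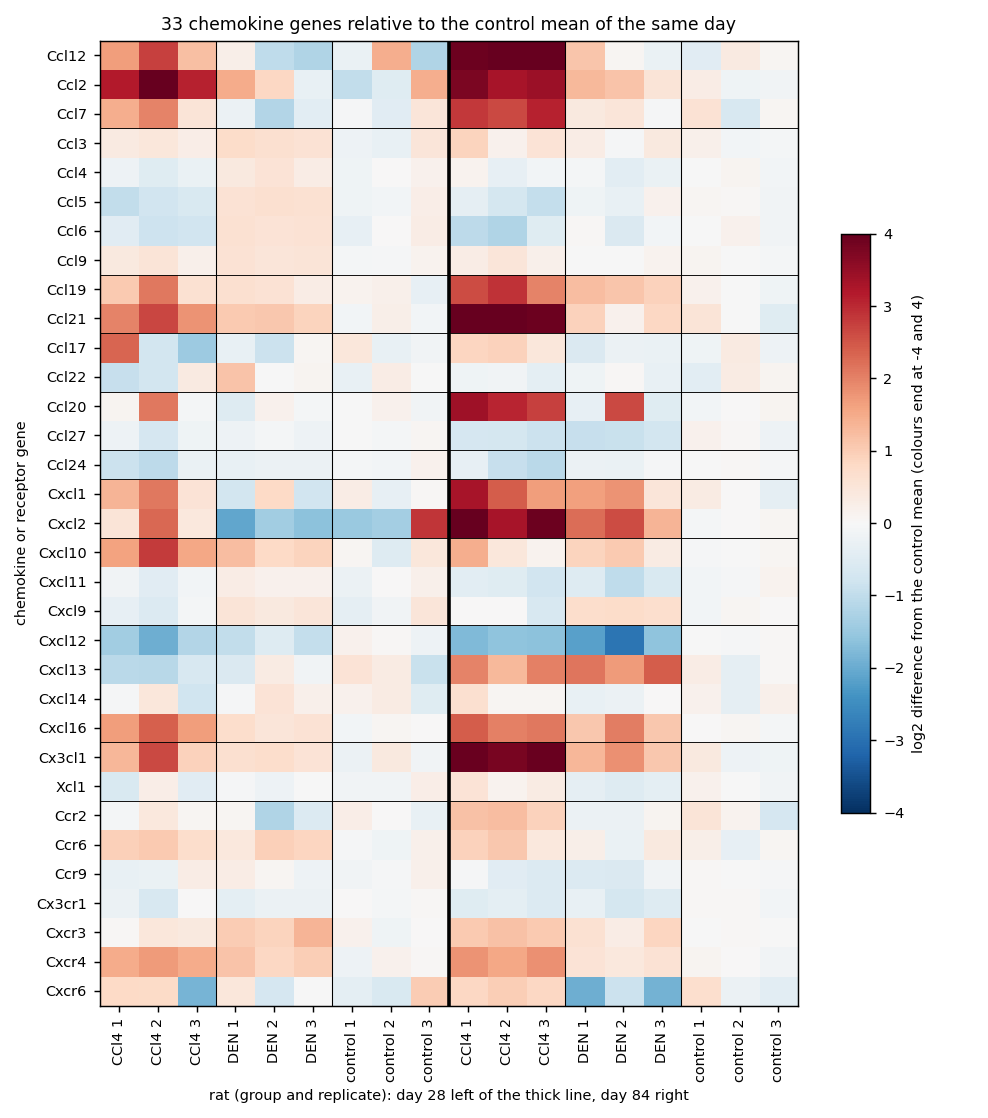
Each row is 1 of 33 tested genes and each column 1 rat, with treated rats left of the controls of the same day. Colour gives the log2 difference of the normalised signal from the mean of the controls of that day, and the CCl4 rats of day 84 show the strongest colours for Ccl12, Ccl20, Ccl21, Cx3cl1, Ccl2 and Cxcl2.

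One gene, the receptor Cxcr4, rose in all 4 comparisons of a treatment with its control. Among the 23 genes bright on all arrays, 12 with Cxcr4 included rose in at least 1 of them and fell in none, 6 fell in at least 1 and rose in none, Ccl5 did both, and 4 passed no test. The group with the highest mean was CCl4 at day 84 for 10 of the 23, control at day 84 for 6, DEN at day 28 for 5 and DEN at day 84 for 2. The same patterns were not counted over all genes. These counts therefore describe the chemokine genes and are no result of their own.

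**Figure D2:**
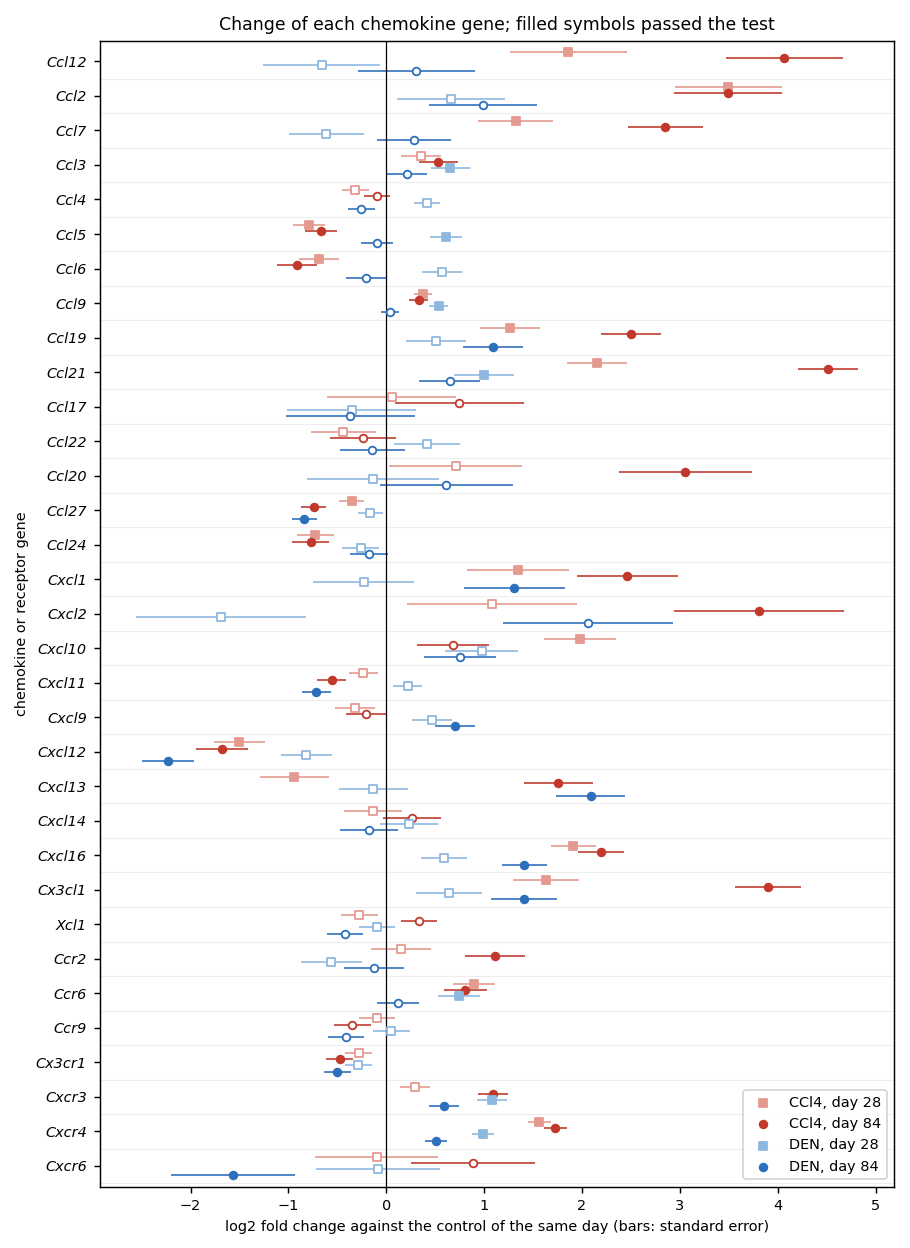
The log2 fold change of 33 tested genes against the control of the same day is shown for the 4 treatment groups, with bars for the standard error and filled symbols where the adjusted p was below 0.05. Values run from -2.23 for Cxcl12 in DEN rats at day 84 to 4.52 for Ccl21 in CCl4 rats at day 84.

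The ligands of monocytes rose together in CCl4 rats and did not pass the test in DEN rats in the fit to all 18 arrays. Ccl2, the main monocyte attractant, had normalised signals of 288, 206 and 225 in CCl4 rats, 51.7, 47 and 30.2 in DEN rats and 25.7, 18.9 and 19.3 in controls at day 84. At day 28 it had 81.1, 171 and 76.2 in CCl4 rats, 25, 16 and 7.29 in DEN rats and 4.59, 6.46 and 24.7 in controls. Every CCl4 rat was above every DEN rat and control on both days. The log2 fold change of Ccl2 in CCl4 rats was 3.49 ± 0.55, adjusted p = 8.87e-05 at day 84 and 3.50 ± 0.55, adjusted p = 0.000105 at day 28. In DEN rats the values of day 84 did not overlap those of controls, yet the test was not passed (0.99 ± 0.55, adjusted p = 0.145). It was passed when the fit held only these groups, which lie on 1 slide (adjusted p = 0.0158), and with spike-in scaling (1.69, adjusted p = 0.016). The day 28 controls were uneven, since only replicate 3 was well above background, and without it Ccl2 was at least 11.6-fold higher in CCl4 rats (adjusted p = 1.19e-05). With no filter on dim probes the adjusted p in CCl4 rats was 0.000172 at day 84 and 0.000206 at day 28.

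Ccl7, a second ligand of Ccr2, was well above background in all 6 CCl4 rats and in 0 of the 12 others. Its signals were 25.6, 22.2 and 30.5 in CCl4 rats, 4.74, 5.02 and 3.51 in DEN rats and 5.34, 2.29 and 3.77 in controls at day 84 and 15.1, 21.6 and 7.82 in CCl4 rats, 4.62, 2.44 and 4.04 in DEN rats and 5.25, 4.03 and 7.68 in controls at day 28. The CCl4 rats were thus above all others of their day. Ccl7 was at least 3.51-fold higher in CCl4 rats than in controls at day 84 (adjusted p = 2.27e-05) and at least 1.63-fold higher at day 28 (adjusted p = 0.00837). Such a bound is given wherever a gene was below background in every array of 1 group, and sets the mean of the brighter group against the lowest signal that counts as well above background. With no filter the adjusted p of Ccl7 was 4.74e-05 at day 84 and 0.0123 at day 28. Under normexp background correction the day 28 call of Ccl7 was lost.

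Ccl12 is known as a Ccr2 ligand from the mouse. It had signals of 48.4, 56.8 and 56 in CCl4 rats, 6.96, 3.37 and 2.64 in DEN rats and 2.36, 4.1 and 3.38 in controls at day 84 and 12.9, 27.1 and 9.38 in CCl4 rats, 4.79, 2.04 and 1.78 in DEN rats and 3.42, 11.3 and 1.78 in controls at day 28. The CCl4 rats of day 84 stood clear of all others, while 1 control of day 28 overlapped the CCl4 rats. Ccl12 was at least 7.27-fold higher in CCl4 rats than in controls at day 84 (adjusted p = 4.93e-05), and its log2 fold change at day 28 was 1.86 ± 0.60, adjusted p = 0.0154. By this probe, the brighter of 2, the day 28 value rested on single rats. Ccl12 was at least 1.91-fold higher without control replicate 2, the only control above background. The log2 fold change was 1.26 and not called without control replicate 3, and not called without CCl4 replicate 2. It was 0.084 under normexp correction. With no filter the adjusted p was 9.81e-05 at day 84 and 0.0209 at day 28. A second probe of Ccl12 read 10.5, 22.7 and 8.33 in CCl4 rats and 1.79, 1.95 and 3.84 in controls at day 28. It was below background in all these controls and at least 1.52-fold higher in CCl4 rats (adjusted p = 9.49e-05). Ccl2, Ccl7, Ccl11, Ccl12 and Ccl1 are neighbours in the genome, and of these Ccl11 was dim on all 18 arrays and Ccl1 well above background in 2 CCl4 rats of day 84 only.

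Ccr2, the receptor of these 3 ligands, was well above background in all CCl4 rats of day 84 and in 0 DEN rats or controls. Its signals at day 84 were 10.7, 11.3 and 8.95 in CCl4 rats, 4.02, 4.03 and 5.09 in DEN rats and 6.77, 5.24 and 3.01 in controls. Ccr2 was at least 1.39-fold higher in CCl4 rats than in controls. Since those CCl4 rats alone let Ccr2 past the filter, the test on all genes with no filter is given, and its adjusted p was 0.00892. With the slide as a block the adjusted p was 0.053, and under normexp correction the CCl4 rats were not higher. At day 28, 2 CCl4 rats and 0 others had Ccr2 above background, and the values overlapped.

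Markers of monocyte-derived macrophages changed in both treatments, whereas Ccl2, Ccl7, Ccl12 and Ccr2 passed no test in DEN rats in the fit to all 18 arrays. Of 10 tested markers, 8 rose and 1 fell in CCl4 rats at day 84, and 5 rose and 3 fell at day 28. In DEN rats 6 rose and 3 fell at day 84 and 3 rose and 1 fell at day 28. Of all genes, 28% were higher and 36.3% lower in CCl4 rats at day 84, and 26.1% and 33.6% at day 28. The shares in DEN rats were 21.6% and 31.1% at day 84 and 7.82% and 7.19% at day 28. Gpnmb, a macrophage lysosomal protein, rose by 3.51 ± 0.18 in CCl4 rats and 1.91 ± 0.18 in DEN rats at day 84. Lgals3, which encodes galectin-3, rose by 1.96 ± 0.15 and 1.31 ± 0.15. Mmp12, a macrophage elastase, was below background in all controls and at least 73.2-fold higher in CCl4 rats and at least 16.6-fold higher in DEN rats. Fn1, fibronectin, fell by 0.92 ± 0.11 in DEN rats. The summed marker signal at day 84 was 33042 to 42625 in CCl4 rats, 27511 to 39907 in DEN rats and 25129.8 to 27284 in controls, and F13a1 was well above background on 1 array only. At day 28 the sums overlapped, at 33359 to 36967 in CCl4 rats, 29811 to 32876 in DEN rats and 27949.6 to 37329 in controls. Kupffer cell markers went 3 up and 5 down of 11 in CCl4 rats at day 84, where Folr2 rose by 1.29 ± 0.13 and Clec4f, the lectin that defines these cells, fell by 2.79 ± 0.32. The part of these markers in the chemokine results was not tested.

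**Figure D3:**
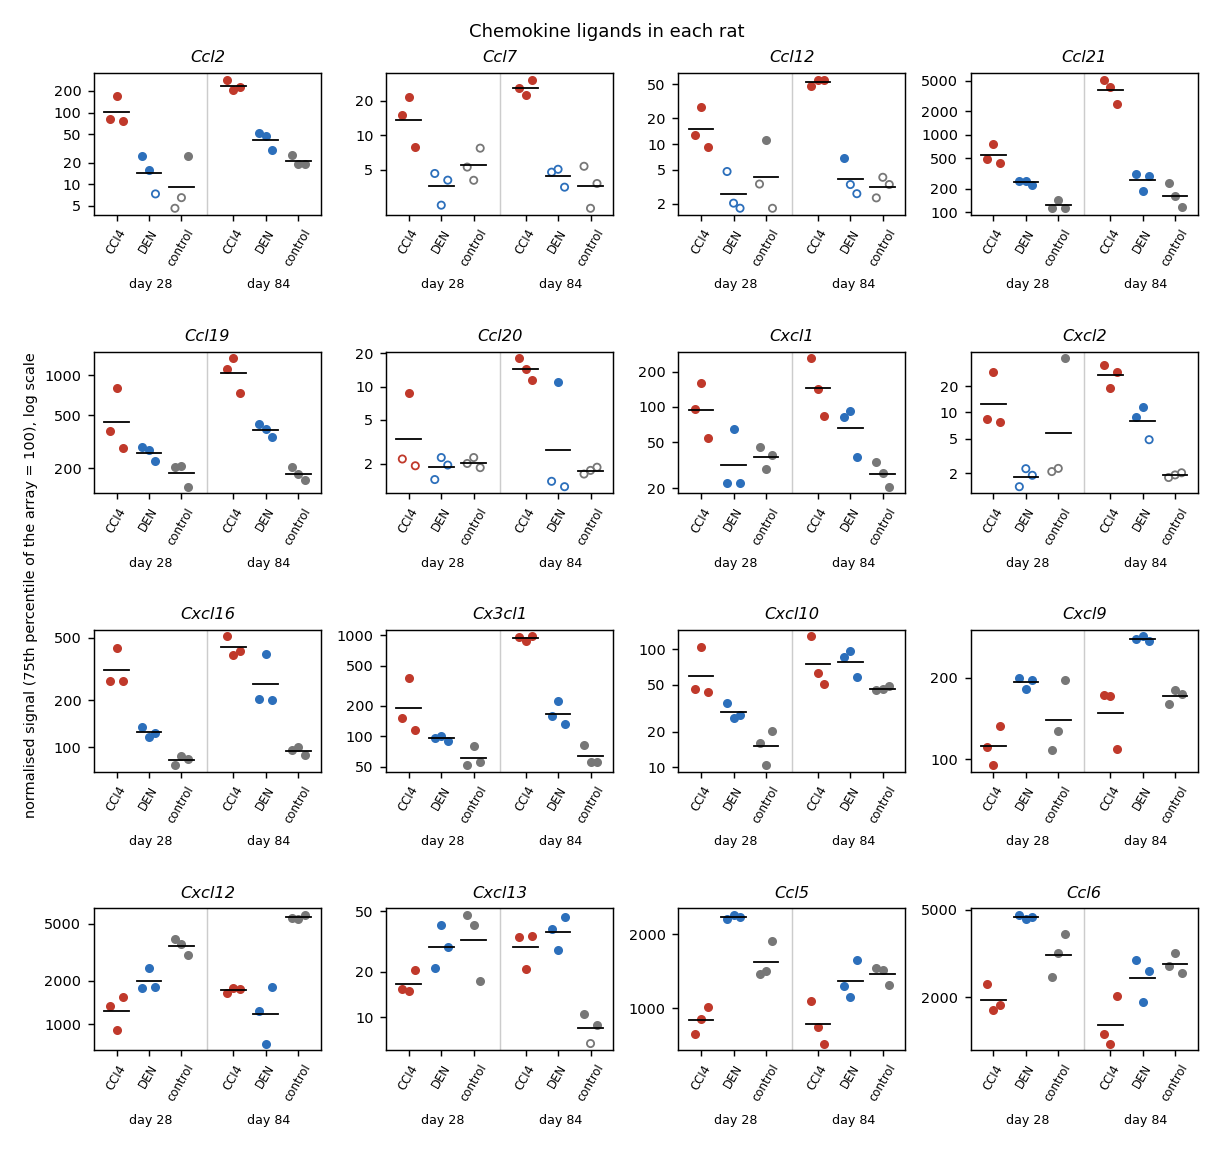
Each panel shows 1 ligand with a point per rat (open where not well above background) and a bar for the group's geometric mean, as normalised signal on a log scale, with treated groups left of the controls of the same day. CCl4 rats lie above controls on both days for Ccl2, Ccl7, Ccl21, Cx3cl1 and Cxcl16, and all treated rats of day 84 lie below controls for Cxcl12.

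The 2 lymphoid ligands rose strongly with CCl4. Ccl21, which draws Ccr7-bearing T cells and dendritic cells, had signals of 5151, 4134 and 2474 in CCl4 rats, 310.4, 186 and 294 in DEN rats and 237, 161 and 116 in controls at day 84 and 482, 769 and 428 in CCl4 rats, 250.3, 255 and 225 in DEN rats and 112, 144 and 113 in controls at day 28. All treated rats of day 28 were above all controls, and the CCl4 rats of day 84 exceeded every other rat. The log2 fold change of Ccl21 in CCl4 rats was 4.52 ± 0.31, adjusted p = 9.15e-08 at day 84 and 2.15 ± 0.31, adjusted p = 4.79e-05 at day 28. The rise in DEN rats at day 28 was 0.995 ± 0.31, adjusted p = 0.0435, and this call was lost when any 1 of the 6 arrays was left out. The mouse has near-identical copies of Ccl21, and whether this rat probe reads more than 1 copy is unknown.

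Ccl19, the other Ccr7 ligand, had 1113, 1339 and 728 in CCl4 rats, 433, 394 and 343 in DEN rats and 204, 181 and 163 in controls at day 84 and 383, 803 and 282 in CCl4 rats, 288, 274 and 228 in DEN rats and 204, 209.9 and 146 in controls at day 28. The 3 groups of day 84 did not overlap and followed the order CCl4, DEN, control. Ccl19 rose in CCl4 rats by 2.50 ± 0.31, adjusted p = 1.15e-05 at day 84 and 1.26 ± 0.31, adjusted p = 0.00281 at day 28, and in DEN rats by 1.09 ± 0.31, adjusted p = 0.00889 at day 84. Without CCl4 replicate 2 of day 28 the day 28 rise was 0.84 and was still called. Ccr7 itself was well above background on 1 of 18 arrays only, a CCl4 rat of day 28.

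In CCl4 rats at day 84, Ccl20 rose and Ccl27 fell. Ccl20, the ligand of Ccr6, had signals of 18.1, 14.4 and 11.5 in CCl4 rats, 1.39, 10.9 and 1.24 in DEN rats and 1.61, 1.74 and 1.86 in controls at day 84. The 3 CCl4 rats were highest, 1 DEN rat came close to them and all others were at background. Ccl20 was at least 1.96-fold higher in CCl4 rats than in controls, with an adjusted p of 0.00224 with no filter on dim probes. Within 1 slide, where the group is the CCl4 rat at 18.1, the adjusted p was 0.0569. At day 28 Ccl20 was above background in 1 rat, CCl4 replicate 2.

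Ccr6, a receptor of B cells, T cells and dendritic cells, had 17.6, 19.4 and 12.3 in CCl4 rats, 10.9, 7.66 and 12.1 in DEN rats and 10.9, 7.31 and 9.79 in controls at day 84 and 12.9, 14 and 11 in CCl4 rats, 9.04, 12.9 and 12.2 in DEN rats and 6.52, 6.03 and 7.77 in controls at day 28. All treated rats of day 28 were above all controls, and at day 84 only the CCl4 rats were. It was at least 1.49-fold higher in CCl4 rats (adjusted p = 0.00259) and at least 1.34-fold higher in DEN rats (adjusted p = 0.0344) than in the day 28 controls, and rose by 0.81 ± 0.22, adjusted p = 0.00461 in CCl4 rats at day 84. With no filter the adjusted p was 0.00446, 0.0594 and 0.00732 for these 3, so that the DEN call was lost. Under normexp correction all 3 calls were lost, and the DEN call was lost also without either of 2 controls or either of 2 DEN rats. With the replicate block the DEN call of Ccr6 also missed the threshold (0.0517).

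Ccl27, a skin-homing ligand for Ccr10, fell in DEN and CCl4 rats at day 84. Its signals there were 172, 165 and 151 in CCl4 rats, 145, 147 and 165 in DEN rats and 307, 280.2 and 234 in controls. All 6 treated rats were below all controls. The log2 fold changes were -0.74 ± 0.13, adjusted p = 0.000186 in CCl4 rats and -0.84 ± 0.13, adjusted p = 0.000135 in DEN rats. The smaller fall of Ccl27 in CCl4 rats at day 28 (-0.35 ± 0.13, adjusted p = 0.0283) was -0.19 and not called without CCl4 replicate 2, and not called without control replicate 1 or control replicate 3. With spike-in scaling Ccl27 no longer fell, at -0.19 in CCl4 rats and -0.14 in DEN rats at day 84, and at day 28 it was higher in CCl4 rats (0.45).

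Both membrane-anchored ligands rose. Cx3cl1, or fractalkine, had signals of 969, 878 and 977 in CCl4 rats, 158, 224 and 132 in DEN rats and 81.8, 55.1 and 55.6 in controls at day 84 and 153, 383 and 116 in CCl4 rats, 95.9, 100.2 and 90.2 in DEN rats and 51.7, 80.1 and 55.1 in controls at day 28. On both days the CCl4 rats were above the DEN rats and these above the controls, with no overlap between groups. Cx3cl1 rose in CCl4 rats by 3.90 ± 0.34, adjusted p = 6.48e-07 at day 84 and 1.63 ± 0.34, adjusted p = 0.000914 at day 28, and in DEN rats by 1.40 ± 0.34, adjusted p = 0.00353 at day 84. A second, dimmer probe of Cx3cl1 was below background in all controls of day 84 and at least 4-fold higher in CCl4 rats (adjusted p = 0.00663), but at day 28 its log2 fold change was -0.35 ± 0.86, adjusted p = 0.743. With the mean of its probes, Cx3cl1 passed the test against controls in CCl4 rats of day 84 only.

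Cx3cr1, the receptor of Cx3cl1 on monocytes and NK cells, was called in opposite directions by its 2 probes. By the brighter probe it had 99.2, 108 and 95.7 in CCl4 rats, 115, 86.7 and 98.2 in DEN rats and 146, 146 and 129.7 in controls at day 84, with every treated rat below every control. The log2 fold changes by that probe were -0.48 ± 0.14, adjusted p = 0.00881 in CCl4 rats and -0.50 ± 0.14, adjusted p = 0.0091 in DEN rats. The second probe read 12.7, 12.3 and 10.5 in CCl4 rats, 3.18, 2.68 and 1.9 in DEN rats and 1.85, 1.93 and 2.09 in controls at day 84 and was well above background in the CCl4 rats alone. By it Cx3cr1 was at least 1.6-fold higher in CCl4 rats than in controls (adjusted p = 1.85e-06), so no direction is given for Cx3cr1. With spike-in scaling the brighter probe also turned, to 0.074 and 0.20.

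Cxcl16, the ligand of Cxcr6 and a scavenger receptor, had 510.4, 389 and 415 in CCl4 rats, 202, 397 and 202 in DEN rats and 96.6, 100 and 89.3 in controls at day 84 and 266, 431 and 266 in CCl4 rats, 135, 116 and 124 in DEN rats and 76.8, 88.2 and 84.3 in controls at day 28. Every treated rat was above every control of its day. The rise was 2.19 ± 0.23, adjusted p = 3.22e-06 at day 84 and 1.91 ± 0.23, adjusted p = 1.29e-05 at day 28 in CCl4 rats, and 1.41 ± 0.23, adjusted p = 0.000242 at day 84 in DEN rats. In DEN rats at day 28 Cxcl16 missed the threshold (0.59 ± 0.23, adjusted p = 0.0993).

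Cxcr6, the Cxcl16 receptor of liver T cells and NKT cells, had signals of 10.3, 11.6 and 10.3 in CCl4 rats, 1.49, 3.19 and 1.57 in DEN rats and 9.2, 4.91 and 4.31 in controls at day 84. All 3 CCl4 rats and 1 control were well above background. In DEN rats it was at least 1.04-fold lower than in controls (adjusted p = 0.0498), a call that was lost without any 1 of the 3 controls, without DEN replicate 1 or 3, and with the replicate block (0.0621). It was lost too with spike-in scaling and with no filter (0.0666). The difference of Cxcr6 between CCl4 rats and controls was 0.89 ± 0.63, adjusted p = 0.23.

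The neutrophil ligands rose in CCl4 rats. Cxcl1 had signals of 262, 142 and 83.6 in CCl4 rats, 82.3, 92.3 and 37.2 in DEN rats and 33.5, 26.9 and 20.7 in controls at day 84 and 96.3, 160.1 and 54.6 in CCl4 rats, 22.4, 64.1 and 22.1 in DEN rats and 45.5, 29.4 and 38.4 in controls at day 28. The CCl4 rats of both days and the DEN rats of day 84 were above the controls of their day. Cxcl1 rose by 2.46 ± 0.52, adjusted p = 0.000851 in CCl4 rats and 1.31 ± 0.52, adjusted p = 0.0463 in DEN rats at day 84, and by 1.35 ± 0.52, adjusted p = 0.0364 in CCl4 rats at day 28. The last 2 calls were weak, since the DEN call was lost without any 1 of the 3 controls or without DEN replicate 1 or 2, and the day 28 call without control replicate 2 or 3 or CCl4 replicate 1 or 2. Both were lost under normexp correction.

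Cxcl2 lies beside Cxcl1 and carries the kappaB match printed above at nearly the same distance from its start. Its signals were 34.7, 18.8 and 29 in CCl4 rats, 8.89, 11.5 and 4.85 in DEN rats and 1.78, 1.91 and 2.02 in controls at day 84 and 8.36, 28.8 and 7.79 in CCl4 rats, 1.4, 2.25 and 1.89 in DEN rats and 2.08, 2.27 and 42.1 in controls at day 28. At day 84 the groups followed the order CCl4, DEN, control with no overlap, whereas at day 28 control replicate 3 was the highest of all. Cxcl2 was at least 3.62-fold higher in CCl4 rats than in controls at day 84 (adjusted p = 0.00159) and at least 1.07-fold higher in DEN rats, which missed the threshold (adjusted p = 0.0601) but passed it when the fit held only these groups (adjusted p = 0.0038). With no filter the adjusted p in CCl4 rats was 0.0027. At day 28 the log2 fold change of Cxcl2 in CCl4 rats was 1.08 ± 0.87, adjusted p = 0.299. Without control replicate 3 it was called and at least 1.41-fold higher (adjusted p = 0.000909). The receptors Cxcr1 and Cxcr2 and the ligand Cxcl6 were dim on all 18 arrays.

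Neutrophil markers also rose in CCl4 rats, 6 of 6 tested at day 84 and 3 of 6 at day 28 (2 of 6 without CCl4 replicate 2). Of all genes, 28% and 26.1% were higher in CCl4 rats at days 84 and 28. In DEN rats 0 of 6 passed the test on both days. Csf3r, among the 6, passed the filter only through the CCl4 rats of day 84 and was below background in all controls. Lcn2, which hepatocytes as well as neutrophils make, was at least 18.3-fold higher in CCl4 rats at day 84 and at least 10.5-fold higher at day 28. S100a9 rose by 1.42 ± 0.34 and Fcnb by 1.30 ± 0.29 at day 84, and Camp by 1.15 ± 0.33 and Fcnb by 0.89 ± 0.29 at day 28. The marker sums were 357 to 612 in CCl4 rats, 144 to 244 in DEN rats and 138 to 161 in controls at day 84 and 185 to 625 in CCl4 rats, 168 to 215 in DEN rats and 119 to 188 in controls at day 28. The 625 is CCl4 replicate 2, and of the other CCl4 rats of that day, at 218 and 185, the lower lay within the range of the controls. The granule genes Elane, Ltf and Prtn3 were not well above background on any array. The part of these markers in the changes of Cxcl1 and Cxcl2 was not tested.

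The interferon-induced ligands did not move together. Cxcl10 had signals of 128, 63.3 and 50.8 in CCl4 rats, 86.2, 96.1 and 57.8 in DEN rats and 44.8, 45.9 and 48.9 in controls at day 84 and 46.1, 104 and 43.9 in CCl4 rats, 35.2, 26.2 and 27.9 in DEN rats and 16, 10.4 and 20.4 in controls at day 28. Every treated rat was above every control of its day, though the test was passed only by CCl4 rats at day 28 (1.98 ± 0.37, adjusted p = 0.000396). In CCl4 rats at day 84 the value was 0.68 ± 0.37, adjusted p = 0.121, but with the slide as a block it was 1.47, adjusted p = 0.0132. In DEN rats the values were 0.97 ± 0.37, adjusted p = 0.0875 at day 28 and 0.75 ± 0.37, adjusted p = 0.102 at day 84, and the first passed with the slide as a block (adjusted p = 0.0464) and the second when the fit held only the groups compared (adjusted p = 0.0208).

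Cxcl9 rose in DEN rats at day 84 and passed the test in none of the other 3 comparisons with controls. At day 84 it had 173, 172 and 109 in CCl4 rats, 278, 285 and 275 in DEN rats and 159.9, 180.2 and 175 in controls, and the DEN rats stood above all others. The log2 fold change was 0.71 ± 0.20, adjusted p = 0.01, against -0.21 ± 0.20, adjusted p = 0.378 in CCl4 rats.

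Cxcl11 fell in both treatments at day 84. It had 126, 121 and 98.2 in CCl4 rats, 117, 82.8 and 110.3 in DEN rats and 156, 164 and 185 in controls, with all 6 treated rats below all controls. The log2 fold changes were -0.56 ± 0.15, adjusted p = 0.00451 in CCl4 rats and -0.72 ± 0.15, adjusted p = 0.00125 in DEN rats. The CCl4 call was lost with the slide as a block (-0.42, adjusted p = 0.115), and with spike-in scaling the changes were -0.0067 and -0.013. Cxcl9, Cxcl10 and Cxcl11 are neighbours in the genome.

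Cxcr3, the shared receptor of Cxcl9, Cxcl10 and Cxcl11, had 28.6, 30.9 and 28.3 in CCl4 rats, 21, 16.8 and 24.8 in DEN rats and 13.5, 14.2 and 13.5 in controls at day 84 and 16.8, 22.6 and 21.3 in CCl4 rats, 33.2, 30.1 and 41.7 in DEN rats and 18.3, 14.5 and 16.5 in controls at day 28. The DEN rats were highest at day 28 and the CCl4 rats at day 84, and the CCl4 rats of day 28 overlapped the controls. Cxcr3 rose by 1.08 ± 0.15, adjusted p = 0.000469 in DEN rats at day 28, by 0.59 ± 0.15, adjusted p = 0.00549 in DEN rats at day 84 and by 1.09 ± 0.15, adjusted p = 3.17e-05 in CCl4 rats at day 84. The DEN call of day 84 was lost under normexp correction (0.025).

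Markers of the cells that carry Cxcr3 were read on the same arrays. Of 10 tested T cell markers, 6 rose and 1 fell in CCl4 rats at day 84, against 28% and 36.3% of all genes. At day 28, 7 rose and 1 fell (6 and 0 without CCl4 replicate 2), against 26.1% and 33.6% of all genes. In DEN rats 2 rose at day 84 and 5 rose at day 28, against 21.6% and 7.82% of all genes higher. Cd8b, the beta chain of the CD8 co-receptor, rose by 2.33 ± 0.19 in CCl4 rats and 0.93 ± 0.19 in DEN rats at day 84, and by 3.11 ± 0.19 and 2.30 ± 0.19 at day 28. Cd3g, a chain of the T cell receptor complex, rose by 1.28 ± 0.17 in CCl4 rats at day 84, and by 1.51 ± 0.17 in CCl4 and 1.11 ± 0.17 in DEN rats at day 28. T cell marker sums were 664 to 714 in CCl4 rats, 418 to 491 in DEN rats and 374 to 442 in controls at day 84 and 665 to 884 in CCl4 rats, 578 to 676 in DEN rats and 368 to 404 in controls at day 28.

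NK cell markers, in contrast, fell in CCl4 rats, 5 of 6 at day 28 and 4 of 6 at day 84, against 33.6% and 36.3% of all genes lower. Their sums at day 28 were 332 to 428 in CCl4 rats, 863 to 956 in DEN rats and 674 to 906 in controls. In DEN rats 1 of 6 rose at day 28 and 2 of 6 fell at day 84, against 7.82% of all genes higher and 31.1% lower. Cd28 and Klrb1 were not well above background on any array. Ifng, the inducer of these ligands, was not well above background on any array either. The part of T and NK cell markers in the chemokine results was not tested.

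**Figure D4:**
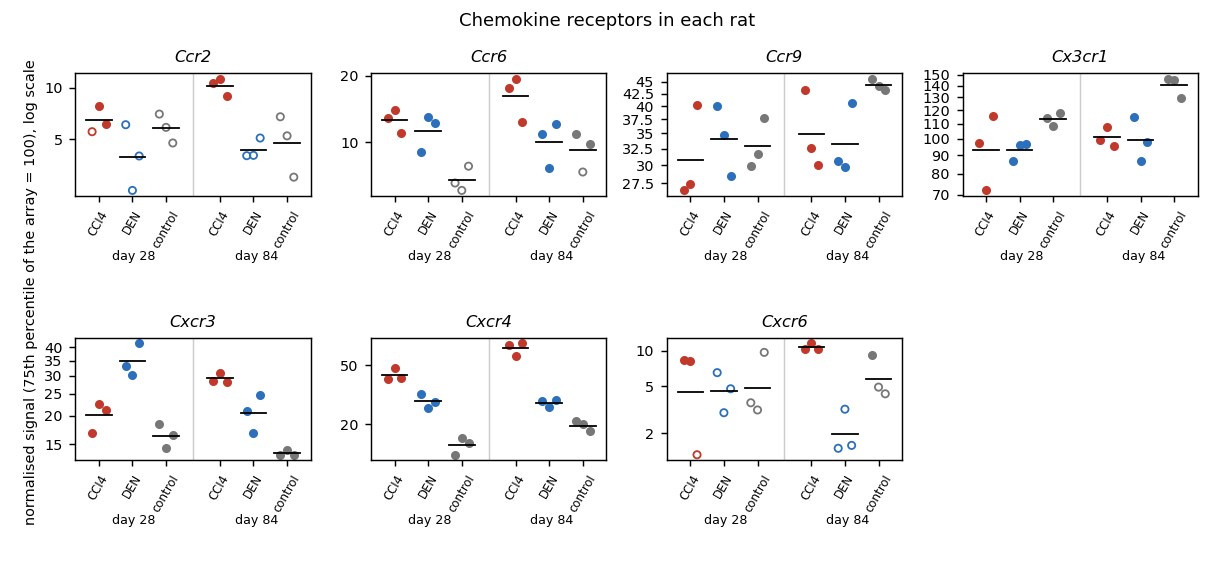
Of the 8 tested receptors, 7 are shown with a point per rat (open where not well above background) and a bar for the geometric mean of each group, as normalised signal on a log scale. Cxcr4 is higher in all treated groups than in the controls of the same day, and Cxcr3 is highest in DEN rats at day 28 and CCl4 rats at day 84.

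Cxcl12 and its receptor Cxcr4 changed in opposite directions. Cxcl12 had signals of 1639, 1795 and 1759 in CCl4 rats, 1238, 731 and 1814 in DEN rats and 5466, 5386 and 5767 in controls at day 84 and 1341, 907 and 1554 in CCl4 rats, 1781, 2439.8 and 1815 in DEN rats and 3913, 3614 and 3039 in controls at day 28. Every treated rat was below every control of its day. Cxcl12 fell by 1.68 ± 0.26 in CCl4 rats (adjusted p = 8.09e-05) and 2.23 ± 0.26 in DEN rats (adjusted p = 1.67e-05) at day 84, and by 1.50 ± 0.26 in CCl4 rats at day 28 (adjusted p = 0.000235). In DEN rats at day 28 it was just over the threshold (-0.82 ± 0.26, adjusted p = 0.0502). Of the 34 genes it was the only one to fall in these comparisons with spike-in scaling. By its brighter probe the falls were then 1.13 and 1.53 in CCl4 and DEN rats at day 84 and 0.70 in CCl4 rats at day 28. By a second probe, well above background in every rat, the log2 fold changes without that scaling were -0.56 and -1.88 at day 84. At day 28 this probe gave -0.71 in CCl4 rats. Spike-in scaling adds 0.55 and 0.80 in CCl4 rats at days 84 and 28, about the size of these falls. The falls in CCl4 rats on that scale thus rest on the brighter probe.

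Cxcr4 had 68.4, 57.9 and 70.2 in CCl4 rats, 28.6, 26.3 and 29.2 in DEN rats and 21, 20.1 and 18 in controls at day 84 and 40.3, 47.6 and 40.9 in CCl4 rats, 32.2, 25.8 and 28.5 in DEN rats and 12.5, 16.2 and 15 in controls at day 28. On both days the order was CCl4, DEN, control with no overlap. Cxcr4 rose by 1.73 ± 0.12, adjusted p = 8.37e-08 in CCl4 rats and 0.51 ± 0.12, adjusted p = 0.00243 in DEN rats at day 84, and by 1.56 ± 0.12, adjusted p = 2.21e-07 and 0.99 ± 0.12, adjusted p = 9.35e-05 at day 28. The DEN call of day 84 was lost under normexp correction (0.065). Ackr3, the atypical receptor that clears Cxcl12 and is named here after its values were seen, was below background in all controls of day 84. It was at least 2.11-fold higher in CCl4 rats, where it passed the test. In CCl4 rats at day 28 Ackr3 also passed the test (at least 1.26-fold higher), but not without CCl4 replicate 2. In DEN rats at day 84 Ackr3 was well above background in all 3 and at least 1.72-fold higher than in controls.

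Cxcl13, which draws B cells to follicles through Cxcr5, is one of the genes whose level differed between the 2 control groups. It had 33.9, 20.9 and 34.5 in CCl4 rats, 38, 27.9 and 45.9 in DEN rats and 10.5, 6.73 and 8.9 in controls at day 84 and 15.3, 15 and 20.4 in CCl4 rats, 21.3, 40.3 and 29.1 in DEN rats and 47.2, 40.4 and 17.3 in controls at day 28. At day 84 all treated rats were above all controls, while at day 28 the groups overlapped. Cxcl13 rose by 1.76 ± 0.35, adjusted p = 0.000607 in CCl4 rats and 2.09 ± 0.35, adjusted p = 0.00029 in DEN rats at day 84. It was lower in CCl4 rats at day 28 (-0.94 ± 0.35, adjusted p = 0.0327), a call lost without control replicate 1 or 2, CCl4 replicate 1 or 2, or with spike-in scaling (-0.14). Cxcr5 was above background on 1 array only, a CCl4 rat of day 84. At day 84, 3 of 6 B and plasma cell markers fell in CCl4 rats and 2 of 6 in DEN rats. Of all genes, 36.3% and 31.1% were lower there, so these counts are no result of their own.

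Cxcl14, a broadly expressed epithelial chemokine, passed no test with its brighter probe, at 0.26 ± 0.30, adjusted p = 0.457 in CCl4 rats and -0.17 ± 0.30, adjusted p = 0.645 in DEN rats at day 84. A second probe of Cxcl14 had 109, 84.9 and 90.8 in CCl4 rats, 114, 80.3 and 129.8 in DEN rats and 346, 240.2 and 333 in controls, with all treated rats below all controls. Its log2 fold changes were -1.68 ± 0.35, adjusted p = 0.000744 in CCl4 rats and -1.52 ± 0.35, adjusted p = 0.00246 in DEN rats. The 2 probes therefore leave Cxcl14 without a settled change.

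Among the inflammatory CC ligands, Ccl9 rose with CCl4 and Ccl5 and Ccl6 fell. Ccl9, a myeloid attractant known from the mouse, had 20309, 23270.3 and 18993 in CCl4 rats, 16481, 16314 and 18135 in DEN rats and 17790.1, 16230.1 and 15588 in controls at day 84 and 20429, 22030.1 and 17912 in CCl4 rats, 23152, 21854 and 22259 in DEN rats and 14653, 14884 and 16933 in controls at day 28. All treated rats of day 28 and the CCl4 rats of day 84 were above the controls of their day. By this probe, the brighter of 2, the day 28 rises were 0.38 ± 0.10, adjusted p = 0.00393 in CCl4 and 0.54 ± 0.10, adjusted p = 0.00263 in DEN rats. In CCl4 rats at day 84 the rise was 0.33 ± 0.10, adjusted p = 0.00756. With the slide as a block this last rise missed the threshold (adjusted p = 0.0645). By a second probe, well above background in every rat, Ccl9 rose by 0.69 in CCl4 and 0.70 in DEN rats at day 28. In CCl4 rats at day 84 it rose by 0.46 (adjusted p = 0.00088).

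Ccl5, or RANTES, a product of T and NK cells, had 1072, 839.5 and 718 in CCl4 rats, 1232, 1109.9 and 1566 in DEN rats and 1466, 1435 and 1240 in controls at day 84 and 786, 907 and 1012 in CCl4 rats, 2301, 2401 and 2361 in DEN rats and 1384, 1425 and 1879 in controls at day 28. At day 28 the DEN rats were above and the CCl4 rats below all controls, and at day 84 the CCl4 rats were again below them. Ccl5 rose by 0.61 ± 0.16, adjusted p = 0.0249 in DEN rats at day 28, and its differences in CCl4 rats were -0.79 ± 0.16, adjusted p = 0.000908 at day 28 and -0.67 ± 0.16, adjusted p = 0.0025 at day 84. The fall of day 84 was -0.36, adjusted p = 0.15 with the slide as a block. With spike-in scaling the changes of Ccl5 in CCl4 rats were 0.013 at day 28 and -0.12 at day 84 and were not called. The DEN rise was lost without control replicate 1 or 2 or without any 1 DEN rat.

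Ccl6, a macrophage chemokine known from the mouse, had 1358, 1232 and 2018 in CCl4 rats, 2948, 1908 and 2635 in DEN rats and 2776, 3162 and 2574 in controls at day 84 and 2292, 1745 and 1839 in CCl4 rats, 4731, 4516 and 4621 in DEN rats and 2466, 3189 and 3879 in controls at day 28. The CCl4 rats were below all controls on both days. The changes in CCl4 rats were -0.91 ± 0.20, adjusted p = 0.00139 at day 84 and -0.68 ± 0.20, adjusted p = 0.0105 at day 28, the second lost without control replicate 3. In DEN rats Ccl6 was above all controls at day 28 but missed the threshold (0.56 ± 0.20, adjusted p = 0.0759). With spike-in scaling neither fall of Ccl6 was called (-0.36 and 0.12).

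Ccl3, a macrophage product and ligand of Ccr1, rose in CCl4 rats at day 84 (0.53 ± 0.20, adjusted p = 0.0323) and in DEN rats at day 28 (0.65 ± 0.20, adjusted p = 0.0436). Its signals were 155, 93.4 and 122 in CCl4 rats, 102, 80.5 and 109.6 in DEN rats and 95.6, 76.7 and 79.2 in controls at day 84 and 90.7, 97.4 and 84.6 in CCl4 rats, 118, 110.3 and 106 in DEN rats and 62.2, 57.6 and 99.2 in controls at day 28. One CCl4 rat overlapped the controls at day 84, whereas the DEN rats of day 28 were above all controls. Without CCl4 replicate 1 the day 84 value of Ccl3 was 0.36 and not called, and it was also lost without CCl4 replicate 3 or control replicate 2 or 3. The DEN call was lost without control replicate 1 or 2 or any 1 DEN rat. Ccr1 was well above background on 4 arrays only and was not tested. Ccl4, which lies beside Ccl3 in the genome, passed no test against controls, its nearest value being 0.41 ± 0.13, adjusted p = 0.0525 in DEN rats at day 28.

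Ccl24, an eosinophil attractant that acts through Ccr3, fell in CCl4 rats. It had 754, 491 and 447 in CCl4 rats, 804, 787 and 901 in DEN rats and 934, 967 and 912 in controls at day 84 and 479.9, 423 and 717 in CCl4 rats, 702, 739.8 and 732 in DEN rats and 817, 813 and 987 in controls at day 28. The CCl4 rats were below all controls on both days. The log2 fold changes of Ccl24 were -0.77 ± 0.19, adjusted p = 0.00269 at day 84 and -0.72 ± 0.19, adjusted p = 0.00467 at day 28, but with spike-in scaling they were -0.22 and 0.076 and were not called. Ccr3 was dim on all 18 arrays.

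Of the 34 tested genes, 6 passed no test against controls in the fit to all 18 arrays: Ccl4, Ccl17, Ccl22, Ccr9, Cxcl14 and Xcl1. Other settings gave calls for some of them. By its second probe, below background in the controls, Ccl17 was at least 2-fold higher in CCl4 rats at day 84 (adjusted p = 0.00124). Within 1 slide, Xcl1 was called in CCl4 rats (0.54, adjusted p = 0.0234) and in DEN rats (-0.42, adjusted p = 0.0159) and Ccr9 in DEN rats (-0.41, adjusted p = 0.0415), all at day 84. With the slide as a block, Ccl4 was called in DEN rats at day 28 (0.41, adjusted p = 0.0397). Ccl17 and Ccl22, which attract Ccr4-bearing T cells, had signals at day 84 of 18.4, 19 and 13.7 in CCl4 rats, 6.66, 8.57 and 8.28 in DEN rats and 8.95, 12.9 and 8.78 in controls for Ccl17 and 8.17, 8.35 and 7.13 in CCl4 rats, 8.22, 9.61 and 7.5 in DEN rats and 6.97, 11.5 and 9.89 in controls for Ccl22. The CCl4 rats were above all others for Ccl17 but overlapped them for Ccl22. Ccl17 also reached 50.9 in CCl4 replicate 1 of day 28, above every other rat, with the other 2 rats of that group at 6.19 and 3.76. Xcl1, a T and NK cell product that calls cross-presenting dendritic cells, had 91.4, 68.8 and 79.6 in CCl4 rats, 48.9, 44.3 and 48.1 in DEN rats and 70.7, 62 and 56.9 in controls at day 84, where the DEN rats were lowest. Ccr9, a gut-homing receptor, had 43.3, 32.6 and 30 in CCl4 rats, 30.6, 29.8 and 40.6 in DEN rats and 45.7, 44.1 and 43.3 in controls at day 84, where the controls lay above the DEN rats and the highest CCl4 rat equalled the lowest control to the digits given.

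The 9 genes that were not well above background on any array were Ccl11, Ccl25, Ccl26, Ccr1l1, Ccr3, Ccr4, Cxcl6, Cxcr1 and Cxcr2, with signals between 0.908 and 6.93. Another 7 were above background on some arrays but in no whole group and were not tested: Ccl1, Ccl28, Ccr1, Ccr7, Ccr10, Cxcl17 and Cxcr5, with signals between 1.05 and 21.1. A signal in this range gives no measured level, so these data do not show whether the 16 genes differed. No matched probe was found for Ccr8 or Cxcl3, which were not analysed here.

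CCl4 was then set against DEN on the same day. At day 28, 10 genes were higher and 7 lower in CCl4 than in DEN rats (50%), against 45.1% of all genes (20.4% higher and 24.7% lower). Of the 23 genes bright on all arrays, 6 were higher and 7 lower (56.5%, against 46.3% of bright genes). With spike-in scaling 13 of the 34 were higher and 2 lower, against 40.4% and 5.8% of all genes. Those higher were Ccl2, Ccl7, Ccl12, Ccl21, Cx3cl1, Cxcl1, Cxcl2, Cxcl10, Cxcl16 and Cxcr4. Those lower were Ccl4, Ccl5, Ccl6, Cxcl9, Cxcl11, Cxcl12 and Cxcr3. The log2 difference was 2.83 ± 0.55, adjusted p = 0.000965 for Ccl2, 1.32 ± 0.23, adjusted p = 0.00049 for Cxcl16, -1.39 ± 0.16, adjusted p = 2.34e-05 for Ccl5 and -0.79 ± 0.15, adjusted p = 0.000948 for Cxcr3. The calls of Cx3cl1, Cxcl1, Cxcl2, Cxcl10, Cxcl11 and Cxcl12 were lost without CCl4 replicate 2. Without that rat Cx3cl1 was 0.49 against 0.99 with it, Cxcl10 was 0.61 against 1.01, Cxcl2 was at least 1.07-fold higher against at least 1.63-fold, and 12 genes were called in all, against 34.6% of all genes.

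At day 84, 16 genes were higher and 4 lower in CCl4 than in DEN rats (58.8%), against 34.3% of all genes (18.5% higher and 15.8% lower). Of the 23 genes bright on all arrays, 9 were higher and 4 lower (56.5%, against 33.7% of bright genes). Ccl20, Ccr2 and Cxcr6 passed the filter through these CCl4 rats alone. Among the higher ones were Ccl2, Ccl7, Ccl9, Ccl12, Ccl19, Ccl20, Ccl21, Ccr2, Ccr6, Cx3cl1, Cxcl16, Cxcr3, Cxcr4, Cxcr6 and Xcl1, and the lower ones Ccl5, Ccl6, Ccl24 and Cxcl9. The log2 difference was 3.87 ± 0.31, adjusted p = 1.43e-06 for Ccl21, 2.49 ± 0.34, adjusted p = 0.000112 for Cx3cl1, 1.40 ± 0.31, adjusted p = 0.00326 for Ccl19 and -0.91 ± 0.20, adjusted p = 0.00356 for Cxcl9. Ccl7 was at least 4.64-fold and Cxcr6 at least 1.92-fold higher in CCl4 rats. With the slide as a block 10 genes were called, all higher in CCl4 rats, against 18.4% of all genes, and within the second slide, which holds 1 CCl4 rat, 12 were called, against 15.2%. Calls lost in both included those of Ccl5, Ccl6, Ccl9, Ccl20, Ccl24, Ccr2, Ccr6, Cxcl16 and Cxcr3, and that of Cxcl9 was lost with the block. Only DEN replicate 2 had Ccl20 above background, and without it Ccl20 was at least 2.61-fold higher in CCl4 rats. Cxcl1 did not pass the test at day 84 (1.15 ± 0.52, adjusted p = 0.0995), nor did Cxcl12 by its brighter probe (0.55 ± 0.26, adjusted p = 0.118). A second probe of Cxcl12, well above background in every rat, was higher in CCl4 than in DEN rats (1.32 ± 0.19, adjusted p = 0.000146). It read 1449, 1298 and 1377 in CCl4 rats and 627, 409 and 643 in DEN rats.

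The effect of each treatment, its log2 fold change against the controls of the day, was compared between the 2 days in the same fit. The DEN effect at day 84 minus that at day 28 passed the test for 6 genes, above 0 for 1 and below 0 for 5, against 16.1% of all genes (7.64% and 8.41%). It was above 0 for Cxcl13 (2.22 ± 0.50, adjusted p = 0.0107). It was below 0 for Cxcl12 (-1.42 ± 0.37, adjusted p = 0.0211), whose DEN values were -2.23 at day 84 and -0.82 at day 28, and for Ccl27, at -0.84 and -0.16, so both were further below controls at day 84. It was also below 0 for Cxcl11 (-0.93 ± 0.21, adjusted p = 0.0107), Ccl4 and Ccl9. With spike-in scaling 1 was above and 1 below 0, against 7.81% of all genes. The CCl4 effect at day 84 minus that at day 28 was above 0 for 4 genes and below 0 for 0, against 6.03% of all genes (3.51% and 2.52%), namely Ccl21 (2.37 ± 0.43, adjusted p = 0.00787), Cx3cl1 (2.27 ± 0.48, adjusted p = 0.0142), Cxcl13 (2.70 ± 0.50, adjusted p = 0.00808) and Cxcr3 (0.80 ± 0.22, adjusted p = 0.0441). Without CCl4 replicate 2 of day 28 it was above 0 for 8 genes, these and Ccl7, Ccl19, Ccl20 and Xcl1, and below 0 for Ccl27, against 12.5% of all genes. With the slide as a block the calls of Cx3cl1 and Cxcr3 were lost and 3 genes were called, against 3.68% of all genes.

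Controls of day 84 were set against controls of day 28, and 4 genes were higher and 1 lower, against 9.77% of all genes (4.44% and 5.32%). Cxcl10 (1.63 ± 0.37, adjusted p = 0.0139), Cxcl11 (0.69 ± 0.15, adjusted p = 0.0101), Cxcr4 (0.44 ± 0.12, adjusted p = 0.0274) and Ccl22 (at least 1.12-fold, adjusted p = 0.0478) were higher and Cxcl13 (-1.90 ± 0.35, adjusted p = 0.0043) lower. The 2 control groups lay on different slides, and with the slide as a block 0 of the 5 calls were left, against 0.449% of all genes called. Day and slide can hardly be told apart in this comparison. The call of Ccl22 was lost without any 1 of the 6 arrays, that of Cxcl10 without control replicate 2 of day 28, and that of Cxcr4 without control replicate 1 of day 28 or control replicate 1 or 2 of day 84.

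Genes that act before and after chemokines were read from lists on the same arrays. The list counts below stand beside 28% of all genes higher and 36.3% lower in CCl4 rats at day 84. The shares of all genes were 26.1% and 33.6% in CCl4 rats at day 28. In DEN rats they were 21.6% and 31.1% at day 84 and 7.82% and 7.19% at day 28. The counts describe the lists and were not tested against these shares. In the NF-kB and inflammatory cytokine list, 6 of 19 tested genes rose and 5 fell in CCl4 rats at day 84. At day 28, 6 rose and 2 fell (7 and 2 without CCl4 replicate 2). In DEN rats 0 rose and 5 fell at day 84 and 5 rose and 1 fell at day 28. Nfkbia, the inhibitor that NF-kB itself induces, fell by 1.33 ± 0.17 in CCl4 rats and 0.997 ± 0.17 in DEN rats at day 28, and by 0.59 ± 0.17 in DEN rats at day 84. Nfkb2, the NF-kB subunit of the alternative pathway, rose by 1.30 ± 0.16 in CCl4 rats at day 84, when Il1a, interleukin 1 alpha, fell by 1.45 ± 0.20. Tlr2, a receptor for bacterial lipoproteins, rose by 1.17 ± 0.17 in CCl4 rats and 0.90 ± 0.17 in DEN rats at day 28. Il6 was not well above background on any array. Median log2 fold changes of this list lay between -0.08 and 0.16.

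In the interferon gamma list, 5 of 14 tested genes rose and 4 fell in CCl4 rats at day 84. At day 28, 4 rose and 3 fell (3 and 3 without CCl4 replicate 2). In DEN rats 3 rose and 3 fell at day 84 and 4 rose and 0 fell at day 28. The receptor chains Ifngr1 and Ifngr2 rose by 0.69 ± 0.10 and 0.80 ± 0.12 in CCl4 rats at day 84. Psmb9, an immunoproteasome subunit, rose by 0.76 ± 0.15 in DEN rats at day 28, and Cd74, the class II invariant chain, by 0.96 ± 0.20.

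Of 20 tested genes of receptor signalling, 9 rose and 2 fell in CCl4 rats at day 84. At day 28, 10 rose and 2 fell (8 and 2 without CCl4 replicate 2). In DEN rats 6 rose and 3 fell at day 84 and 1 rose and 1 fell at day 28. Gnai2, the G protein alpha subunit that chemokine receptors use in leukocytes, rose by 1.03 ± 0.12 in CCl4 rats and 0.44 ± 0.12 in DEN rats at day 84. Rgs2, a brake on G protein signalling, rose by 1.82 ± 0.18 and 0.75 ± 0.18, while Rgs16 fell by 3.12 ± 0.39 in CCl4 rats at day 28.

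Of 15 tested genes of adhesion and chemokine processing, 6 rose and 1 fell in CCl4 rats at day 84. At day 28, 6 rose and 4 fell (5 and 4 without CCl4 replicate 2). In DEN rats 3 rose and 2 fell at day 84 and 2 rose and 1 fell at day 28. Mmp2, a protease that trims Ccl7 and Cxcl12, rose by 3.06 ± 0.29 in CCl4 rats and 1.15 ± 0.29 in DEN rats at day 84. Itgb1, the beta 1 integrin chain, rose by 0.88 ± 0.095 and 0.65 ± 0.095. Sdc4, a heparan sulfate proteoglycan, fell by 1.27 ± 0.15 in CCl4 rats at day 28. Dpp4, the protease that trims many chemokines, fell by 0.32 ± 0.10 in DEN rats at day 28.

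Of 10 tested atypical and other chemoattractant genes, 5 rose and 1 fell in CCl4 rats at day 84. At day 28, 3 rose and 1 fell (2 and 1 without CCl4 replicate 2). In DEN rats 2 rose and 1 fell at day 84 and 0 changed at day 28. C5ar1, the complement C5a receptor of myeloid cells, rose by 1.75 ± 0.28 in CCl4 rats at day 84. Pf4, a platelet chemokine under an older symbol, rose by 1.89 ± 0.30. Rarres2, the hepatocyte-made attractant chemerin, fell by 0.90 ± 0.12 in CCl4 rats and 0.83 ± 0.12 in DEN rats at day 84.

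Markers of the non-leukocyte cells that can make chemokines were read as well. Their counts stand beside 28% of all genes higher and 36.3% lower in CCl4 rats at day 84, and 26.1% and 33.6% at day 28. For DEN rats the shares of all genes were 21.6% and 31.1% at day 84 and 7.82% and 7.19% at day 28. A count near these shares is no result of its own. Of 12 stellate cell and myofibroblast markers, 8 rose in CCl4 rats at day 84. At day 28, 7 rose and 1 fell (6 and 1 without CCl4 replicate 2). In DEN rats 3 rose and 1 fell at day 84 and 1 rose at day 28. Their sums were 11143 to 17939 in CCl4 rats, 4135 to 4795 in DEN rats and 2752 to 3253 in controls at day 84. Of 9 cholangiocyte markers, 8 rose and 1 fell in CCl4 rats and 7 rose and 1 fell in DEN rats at day 84. Their sums there were 1097 to 1455 in CCl4 rats, 607 to 1090.3 in DEN rats and 237 to 284 in controls. At day 28, 6 rose in CCl4 rats (4 without CCl4 replicate 2) and 0 in DEN rats. Of 7 sinusoidal endothelial markers, 4 fell in CCl4 rats, and 3 fell and 1 rose in DEN rats, at day 84, with sums of 3236 to 3530.3 in CCl4 rats, 4812 to 5348 in DEN rats and 5986 to 7509.9 in controls. Of 10 hepatocyte markers, 8 fell in CCl4 and 9 in DEN rats at day 84 and 9 and 3 at day 28. The 3 tested dendritic cell markers went 2 up in CCl4 and 1 up in DEN rats at day 84. The part of these cell types in the changes of Cx3cl1, Cxcl12, Cxcl16, Ccl2 and the other ligands was not tested.

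**Figure D5:**
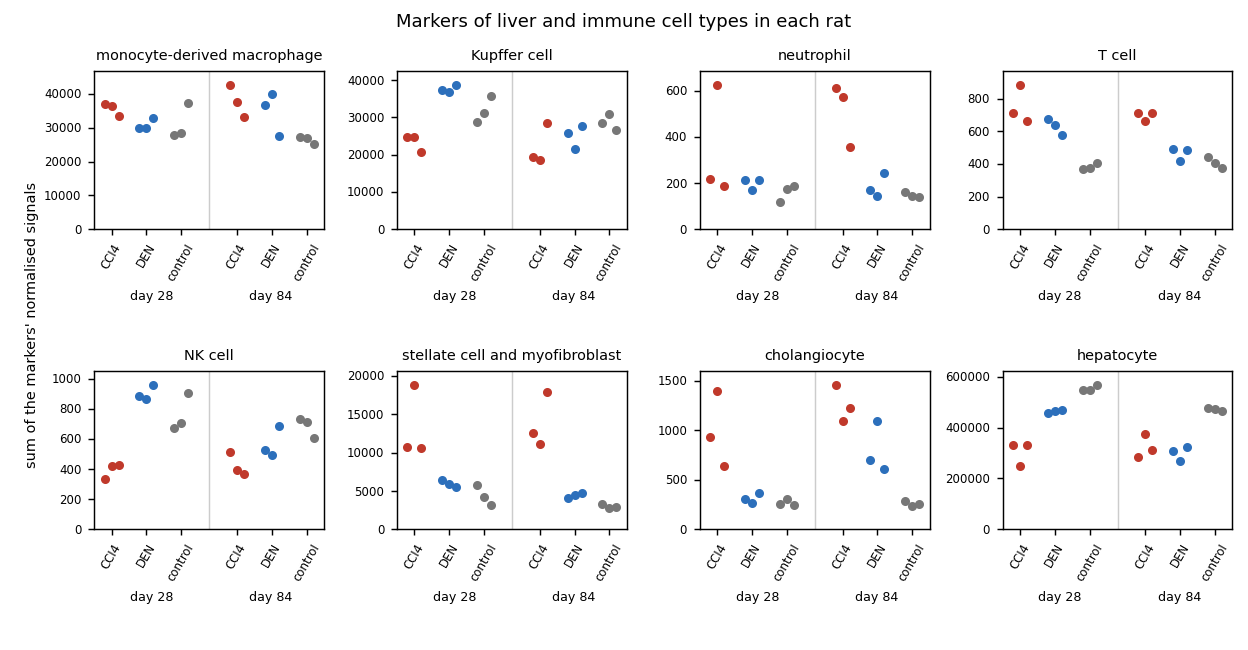
Each panel gives, for 1 cell type, the sum of its markers' normalised signals in each rat on an axis from 0, with treated groups left of the controls of the same day. Stellate cell sums lie between 10610 and 18754 in CCl4 rats of day 28 and between 3195 and 5839 in their controls, while NK cell sums lie between 332 and 428 in CCl4 rats and between 674 and 906 in controls.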

How the data were processed

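Liver RNA from 18 rats was hybridised to 1-colour Agilent arrays, and per the file headers the deposited scanner files come from version 10.7.1.1 of Feature Extraction, Agilent's own software. The processed signal of each spot is an intensity that the authors' scanner software had corrected for background, per the file headers. The authors' value table, also deposited, holds linear ratios of the processed signal to 1 constant per array (100% of values fit this within 0.01 on the log2 scale), with column medians of 0.0852 to 0.0978. It served as an alternative. Depth does not apply to arrays, whose number limits the precision.

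Each array held 62976 spots, of which 1439 control spots were left out, and 18 outlier probes were left out. Log2 processed signals were centred on the array's 75th percentile. Of 34683 probes with a RefSeq accession, 28206 matched 1 gene of the reference table (assembly GRCr8) and the remaining 33331 of 61537 probes, with or without an accession, were unnamed. Each gene was read from the probe with the highest mean. A gene was tested only where some group had that probe well above background on each of its 3 arrays. limma 3.58.1 in R 4.3.3 (lmFit, eBayes) was fitted to all 18 arrays with 1 mean per group, and p-values were adjusted over all genes of each of 9 comparisons at 0.05. The script was tested on simulated data.

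The members, lists and tests were chosen with earlier results of these data known. Every member called in any comparison is named, apart from 1, and from each other list up to 3 called genes with the smallest adjusted p per comparison. That member and 1 other list gene are not reported here. Alternatives were normexp background correction (offset 50), scaling to spike-ins or to the median, quantile normalisation, other filters, all probes or the second probe of a gene (chosen after seeing the data, as were list counts without 1 CCl4 rat), the slide or the replicate number as a block, 1 slide, the compared groups only and each array left out. Promoters were read with Python 3.11.15 and pandas 2.3.3. The arrays' own annotation refers to another genome build, so coordinates are given for promoters only.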

Additional observations from a re-analysis of the deposited data

Results flagged for a closer look

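For 10 results the effect of a treatment differed between the 2 days by the test of the difference itself, limma's interaction contrast with adjustment over all genes. The DEN effect at day 84 minus that at day 28 was 2.22 on the log2 scale for Cxcl13, -1.42 for Cxcl12, -0.93 for Cxcl11, -0.68 for Ccl27, -0.67 for Ccl4 and -0.50 for Ccl9. Only those of Cxcl13 and Cxcl11 were called whichever single array was left out. The CCl4 effect at day 84 minus that at day 28 was 2.70 for Cxcl13, 2.37 for Ccl21, 2.27 for Cx3cl1 and 0.80 for Cxcr3. The first 3 were called whichever single array was left out, and Cxcr3 was not. Control rats differ between the days for Cxcl13 (-1.90) and Cxcl11 (0.69), and these controls enter both differences. The cause of these differences was not tested.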

How the results depend on the processing

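With the authors' value table all 306 single-gene results were called as reported. In DEN rats at day 28 the 7 calls became 16 with spike-in scaling and 4 with no filter on dim probes, and ranged from 3 to 10 with 1 array left out. The 20 calls of CCl4 against DEN at day 84 became 13 with only probes bright on all 18 arrays, 10 with the slide as a block and 12 on 1 slide, and ranged from 14 to 18. The 6 differences of the DEN effect became 2 with spike-in scaling and ranged from 3 to 9, and the 4 of the CCl4 effect became 9 with normexp and 2 with spike-in scaling and ranged from 3 to 9. The 5 calls between control days became 2 with normexp, 3 with no filter, 3 with only bright probes and 0 with the slide as a block, and ranged from 3 to 5. The count with 1 array left out ranged from 15 to 20 in CCl4 rats at day 28 and, at day 84, from 24 to 25 in CCl4 and 11 to 13 in DEN rats, and from 12 to 20 for CCl4 against DEN at day 28.

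With the replicate block the counts were 6, 12, 18 and 25 for DEN at days 28 and 84 and CCl4 at days 28 and 84, 17 and 21 for CCl4 against DEN, 6 and 5 for the DEN and CCl4 effects and 4 between control days. The deviations of rats with the same number correlated with a median of -0.004 over 45 pairs (-0.227 to 0.433). For rats with different numbers the median was -0.004 over 90 pairs (-0.398 to 0.205). Above 0.1 lay 6 of the 45 and 8 of the 90 pairs. A median cannot tell whether some pairs shared more than the number.

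The direction reversed for these log2 fold changes. With spike-in scaling, in CCl4 rats at day 28, they were 0.076 for Ccl24, 0.45 for Ccl27, 0.48 for Ccl4, 0.013 for Ccl5, 0.12 for Ccl6, 0.71 for Ccr9, 0.52 for Cx3cr1 and 0.57 for Cxcl11, in DEN rats at day 84 0.61 for Ccl5 and 0.20 for Cx3cr1, and in CCl4 rats at day 84 0.074 for Cx3cr1. With normexp they were -0.0020 for Ccl7, -0.39 for Ccr2 and -0.10 for Ccr6 in CCl4 rats at day 28, -0.32 for Ccl12 and -0.31 for Ccl7 in DEN rats at day 84 and -0.021 for Ccr2 in CCl4 rats at day 84. The second probe gave no value for 36 of 162 results, in which both groups were below background, and otherwise they were -0.35 for Cx3cl1 in CCl4 rats at day 28, 2.60 for Cx3cr1 and -1.68 for Cxcl14 in CCl4 rats at day 84 and -1.19 for Cx3cl1 for CCl4 against DEN at day 28. With the mean of probes they were 0.38 for Cx3cr1 in CCl4 rats at day 28, 1.06 for Cx3cr1 in CCl4 rats at day 84 and -0.10 for Cx3cl1 for CCl4 against DEN at day 28. With the slide as a block they were 0.63 for Ccl24 for the CCl4 effect and -0.058 for Ccl22 between control days, and -1.08 for Ccl17 in CCl4 rats at day 28 without CCl4 replicate 1. The cause was not tested, except that spike-in scaling adds 0.80 and 0.41 to every gene in CCl4 and DEN rats at day 28 and 0.55 and 0.70 at day 84.

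Having 3 rats per group, 1 CCl4 rat of day 84 on a slide with its controls, and dim probes limit what these arrays show.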
